A study of Mus musculus with 4 samples.

Results

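The genes that encode the proteins of the cytoplasmic ribosome were examined in RNA sequencing of micro-dissected mouse forebrain at E10.5 (the embryonic day). Their symbols were matched by name in the count table (Rpl or Rps followed by a number, Rpsa, and Rplp0 to Rplp2), and those whose mean reached 10 CPM (read counts of a gene per 1000000 counts of its library) over the 4 libraries were kept. Of 84 matched symbols among 24982 genes, 76 were kept, 45 of the large and 31 of the small subunit, and all 76 passed the count filter of the test. The cKO group (conditional knockout, genotype Sox1 cre+/-; Chd7 f/f) and the control group (genotype Chd7 +/f) had 2 libraries each. Chd7 encodes a chromatin remodeller, and Sox1-Cre is a recombinase named for the Sox1 gene, which is active in early neural progenitors. Every library carried at least 1 floxed Chd7 allele, and Cre is given for the cKO libraries alone, so its own effect and that of Chd7 loss cannot be told apart. The labels do not say how many embryos went into a library, so the p-values reflect how far these libraries vary among themselves, a spread that may in part be technical.

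A ribosome is made of a large and a small subunit, each an RNA core with many proteins that are needed in nearly equal number. In mammals most ribosomal protein genes are among the most highly expressed genes of growing cells, and their mRNAs begin with a run of pyrimidines, the 5′ terminal oligopyrimidine tract, through which growth signals control their translation. The early forebrain consists mostly of dividing neuroepithelial progenitors, a cell population with a high demand for ribosomes.

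Total counts were 16581252 and 17096522 in the cKO libraries and 16609514 and 16916602 in the control libraries. Chd7 was at 136 and 132 CPM in the cKO libraries, against 340 and 345 CPM in the control libraries, and its log2 fold change was -1.35 ± 0.05 (SE) at an adjusted p of 8.7e-05 in edgeR. Levels of single genes are given as CPM scaled by the trimmed mean of M values (TMM), and fold changes are of the cKO over the control. A gene was called when its p-value from edgeR's quasi-likelihood test, corrected by the Benjamini-Hochberg method across the 14235 genes tested, was under 0.05.

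Promoter windows were taken from RefSeq (GRCm38.p6), which gave 66 promoters for 56 of the 76 genes. They are shown because the pyrimidine run at the start of transcription is the sequence feature these genes are known for. Each window runs from 30 bases before the start of transcription through the first 20 transcribed bases, 5′ to 3′ on the gene's own strand. Capitals mark TCTTT where it lies within 10 bases of the start, CCGGAAG (a core shared by sites of ETS-family factors) and AAGATGGC (a core of YY1 sites), the last pair on either strand.
Rpl12, chr2:32961682-32961731, plus strand: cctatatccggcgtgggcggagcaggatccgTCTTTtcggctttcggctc
Rpl35, chr2:39005112-39005161, minus strand: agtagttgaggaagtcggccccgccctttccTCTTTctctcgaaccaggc
Rpl7a, chr2:26910777-26910826, plus strand: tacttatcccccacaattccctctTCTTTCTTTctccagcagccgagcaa
Rpl38, chr11:114668550-114668599, plus strand: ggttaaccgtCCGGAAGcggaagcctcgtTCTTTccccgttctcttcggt
Rpl35a, chr16:33056452-33056501, plus strand: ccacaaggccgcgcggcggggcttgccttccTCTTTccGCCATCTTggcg
Rps6, chr4:86857348-86857397, minus strand: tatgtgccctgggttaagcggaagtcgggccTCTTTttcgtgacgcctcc
Rplp2, chr7:141447621-141447670, plus strand: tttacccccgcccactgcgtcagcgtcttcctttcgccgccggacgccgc
Rps18, chr17:33955646-33955695, minus strand: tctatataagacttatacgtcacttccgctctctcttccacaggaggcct

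The first 6 of these windows hold TCTTT at the start, as did 9 of the 66 promoters (13.6%) on the gene's own strand and 0 on the other strand. Over all 32851 promoters in the RefSeq table the shares were 2.19% and 2.07%. The windows of Rplp2 and Rps18, a pair of genes that rose in the cKO, have pyrimidine runs at the start without those 5 letters. Pyrimidines made up a median of 57.5% of the 20 bases around the start in these promoters and 50% over all promoters. In the whole RefSeq promoter window, which ends 50 bases after the start and was searched on both strands, CCGGAAG was found in 34.9% of the ribosomal protein promoters against 8.86% of all promoters, AAGATGGC in 10.6% against 2.75%, and GGGCGG (a core of Sp1 sites) in 62.1% against 35.7%. The median share of G and C bases in the window was 58.2% in these promoters and 52.7% over all promoters. How far base composition accounts for the motif shares was not tested. In 1 of the 66 promoters, motif matches overlapped each other. Promoters of the genes called in the cKO held TCTTT in 1 of 17 cases and CCGGAAG in 6 of 17, against 8 of 49 and 17 of 49 for the ribosomal protein genes not called. A match to letters is a description and does not show that a factor binds there.

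Most ribosomal protein mRNAs had slightly higher values in the cKO forebrain, and 15 of the 76 passed the test. The log2 fold change was positive for 75 of the 76 genes, against 49.9% of all genes tested. In edgeR these 15 rose and 0 fell, where 3.7% of all genes tested were called, 1.57% higher and 2.13% lower. At an unadjusted p under 0.05, 59 were higher, against a background share of 8.43%, and 0 were lower. DESeq2 called 29 higher, against 286 of all 14235 genes tested, and limma-voom called 20, against 210. Both called 0 of the 76 lower, against 353 (DESeq2) and 271 (limma-voom) of all genes tested. The median log2 fold change was 0.16, or 1.11-fold, with quartiles of 0.11 and 0.20, against a median of -0.0003 and quartiles of -0.12 and 0.12 over all genes tested. The median SE of a single gene was 0.04, so most of these differences are a few times their own error. Over all genes tested the median SE was 0.11. A change of the same size thus passes more easily in these genes, and the background shares here and below are not matched for level.

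**Figure D1:**
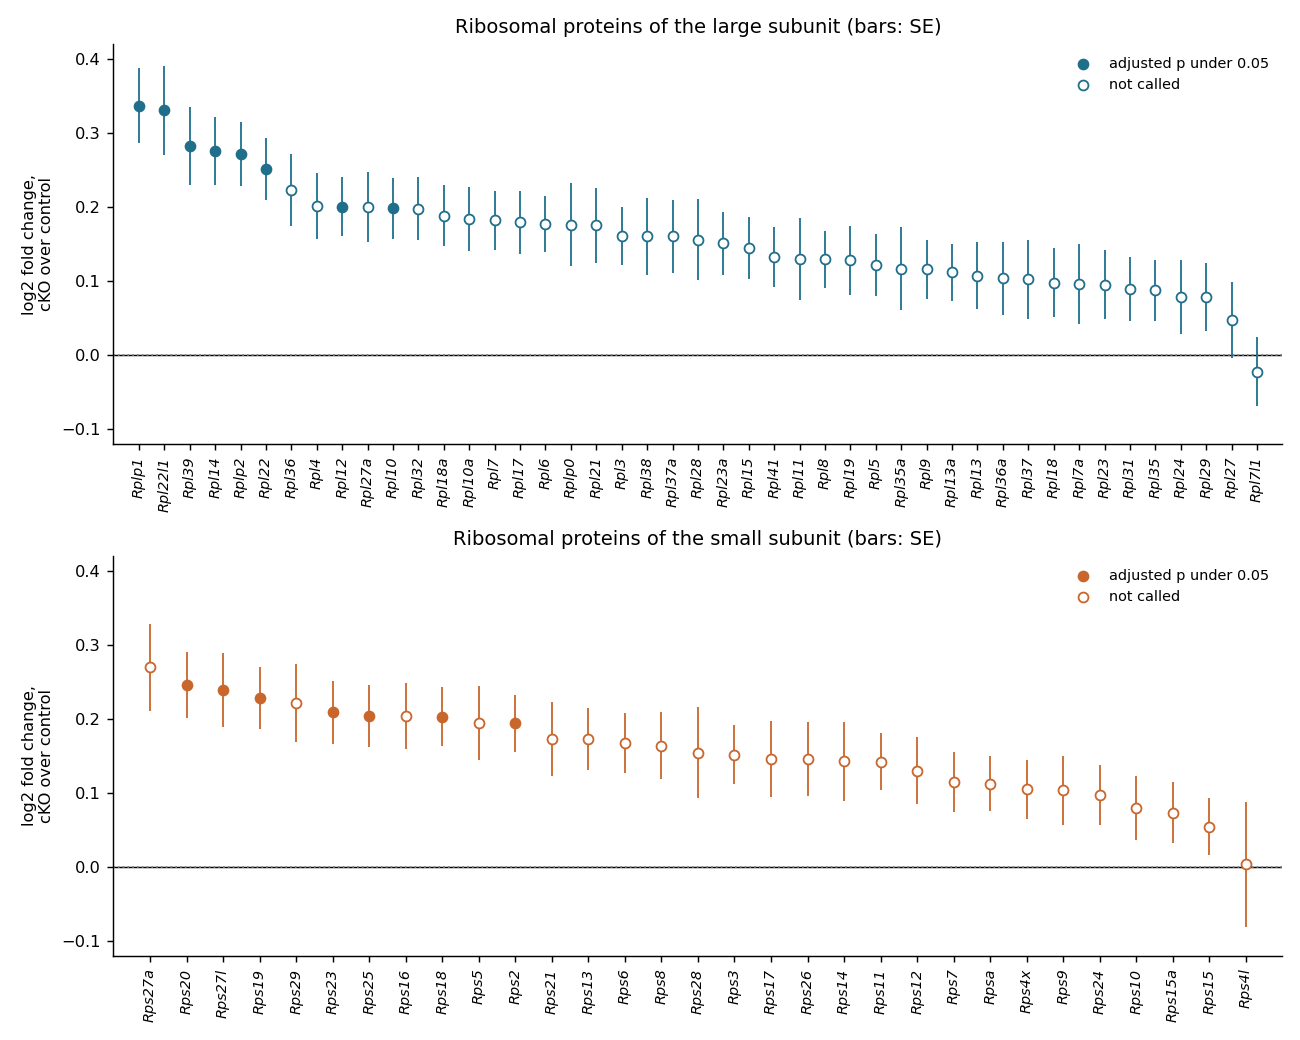
Log2 fold change, cKO over control, of the 45 large subunit genes (upper panel) and the 31 small subunit genes (lower panel), sorted by value; bars are the SE, filled circles are genes with an adjusted p under 0.05, and the dotted line is the median of all genes tested. Values run from -0.02 for Rpl7l1 to 0.34 for Rplp1, and 75 of 76 lie above 0.

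Summed over the 76 genes, ribosomal protein reads took 4.999% and 5.121% of all counts in the cKO libraries, against 4.53% and 4.63% in the control libraries. The Wilson 95% intervals were 4.99% to 5.01%, 5.11% to 5.13%, 4.52% to 4.54% and 4.62% to 4.64% in that order, and cover counting error only. Both cKO libraries were above both control libraries, with means of 5.06% ± 0.09 and 4.58% ± 0.07 (SD, n = 2 each), a ratio of 1.10. Taken gene by gene, both cKO libraries lay above both control libraries for 72 of the 76 genes (background share 24.3%) and below them for 0 (background share 24%). The groups overlapped for Rpl24, Rpl27, Rps4l and Rpl7l1.

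The libraries of 1 group also differed from each other across this set. cKO replicate 2 was above cKO replicate 1 for 68 of the 76 genes, by a median of 0.05 on the log2 scale, and control replicate 2 was above control replicate 1 for 62, by 0.03. Over the 9858 tested genes whose mean reached 10 CPM, the same medians were 0.008 and -0.005. Relative to the control mean, the median ribosomal protein gene was at 0.13 in cKO replicate 1, 0.18 in cKO replicate 2, -0.01 in control replicate 1 and 0.01 in control replicate 2. These medians differ more between the groups than within either one. The genes also vary together within a group, so they are not independent observations.

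**Figure D2:**
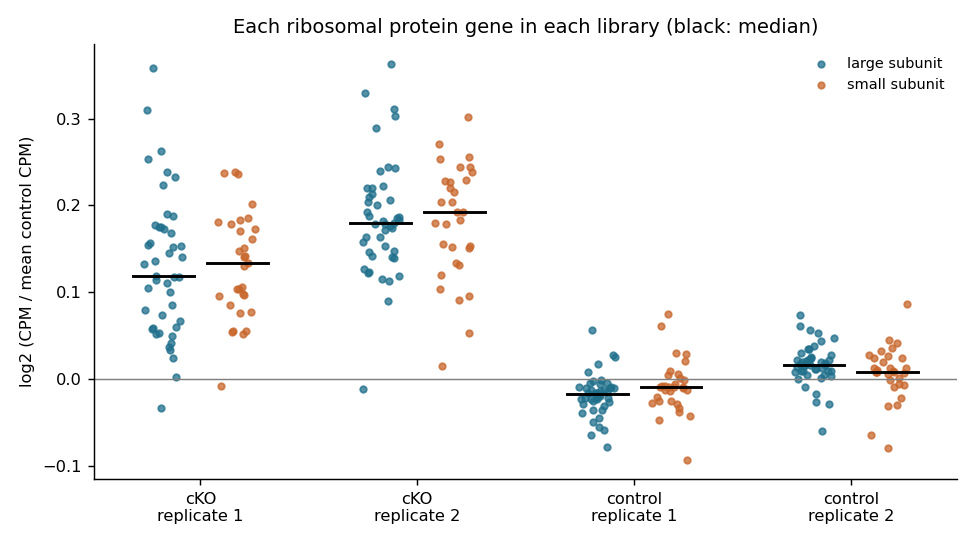
Log2 of each ribosomal protein gene's CPM over its mean control CPM, in each of the 4 libraries; each point is a gene, and black lines are medians per subunit. The medians of both subunits are above 0.1 in the cKO libraries and within 0.02 of 0 in the control libraries, with cKO replicate 2 above cKO replicate 1.

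The subunits had like values. Large subunit genes took 2.91% and 2.99% of counts in the cKO libraries, against 2.63% and 2.71% in the control libraries. Small subunit genes took 2.09% and 2.13% in the cKO libraries, against 1.91% and 1.92% in the control libraries. The ratio of cKO to control means was 1.105 for the large subunit (2.95% ± 0.06 and 2.67% ± 0.06, SD, n = 2 each) and 1.103 for the small subunit (2.11% ± 0.03 and 1.91% ± 0.01). The count ratio of large over small subunit genes was 1.39 and 1.40 in the cKO libraries, against 1.38 and 1.41 in the control libraries, so the groups overlapped. Of the 45 large subunit genes 8 rose, 44 had a positive log2 fold change and the median was 0.16. Of the 31 small subunit genes 7 rose, all 31 were positive and the median was 0.15. No gene of either subunit fell in edgeR, DESeq2 or limma-voom, and none was lower at an unadjusted p under 0.05.

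**Figure D3:**
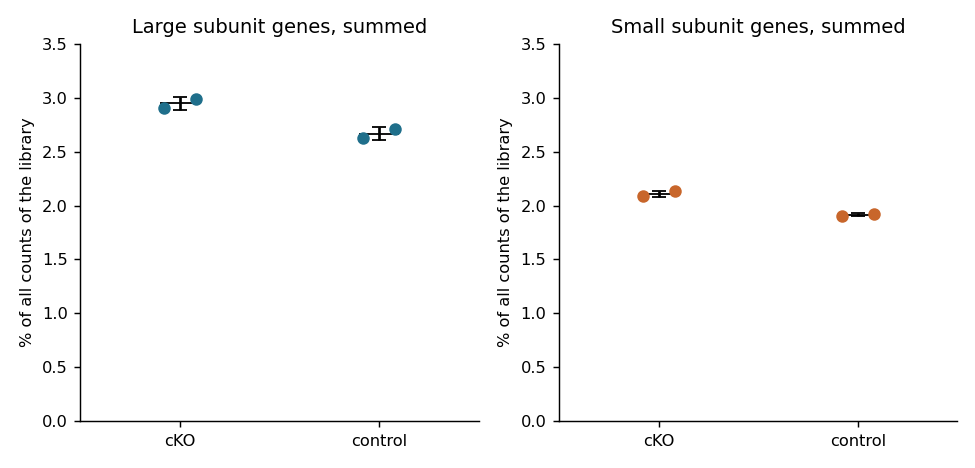
Percentage of all counts of a library taken by large subunit genes (left panel) and small subunit genes (right panel), with the cKO left of the control; points are libraries, and bars are the mean and SD of 2 libraries. The cKO means are 2.95% and 2.11%, against control means of 2.67% and 1.91%, and the groups do not overlap in either panel.

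Within the large subunit, the ribosomal stalk held the gene with the largest value. The stalk is a flexible protrusion that recruits the translation factors that hydrolyse GTP. Its tip consists of dimers of the acidic proteins P1 and P2, encoded by Rplp1 and Rplp2, which are held by P0, encoded by Rplp0, and Rpl12 encodes a protein at its base. Of these 4 genes 3 rose, against 15 of all 76. Their median log2 fold change was 0.24, against 0.16 over all 76. Whether the stalk differs from the other genes was not tested. Rplp1 (chr9:61913283-61914510) was at 701 and 727 CPM in the cKO libraries, against 543 and 588 CPM in the control libraries. The groups did not overlap, and the log2 fold change of 0.34 ± 0.05 (SE; adjusted p = 0.0164) was the largest among the 76 genes. Rplp2 (chr7:141447651-141451359) was at 353 and 362 CPM in the cKO libraries, against 294 and 299 CPM in the control libraries, without overlap, at a log2 fold change of 0.27 ± 0.04 (adjusted p = 0.0196). Rpl12 (chr2:32961712-32964045) was at 770 and 783 CPM in the cKO libraries, against 666 and 685 CPM in the control libraries (log2 fold change 0.20 ± 0.04, adjusted p = 0.0428). Its exons share 53 bases with Lrsam1 on the opposite strand, and the recorded counting sets no strand. Rplp0, also without overlap between the groups, did not pass the test. It was at 1707 and 1780 CPM in the cKO libraries, against 1462 and 1624 CPM in the control libraries (log2 fold change 0.18 ± 0.06, adjusted p = 0.157).

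Rpl22 and Rpl22l1 encode paralogous RNA-binding proteins of the large subunit of one family, and in mouse the Rpl22 protein is known to repress the Rpl22l1 mRNA. Both rose. Rpl22l1 (chr3:28805508-28807424) was at 134 and 129 CPM in the cKO libraries, against 109 and 100.4 CPM in the control libraries. Rpl22 (chr4:152324436-152334082) was at 441 and 434 CPM in the cKO libraries, against 364 and 372 CPM in the control libraries. The groups did not overlap for either gene, and the log2 fold changes were 0.33 ± 0.06 for Rpl22l1 (adjusted p = 0.0314) and 0.25 ± 0.04 for Rpl22 (adjusted p = 0.0233). Exons of Rpl22l1 share 159 bases with Gm33051 on the opposite strand.

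The paralogues Rpl7l1 and Rps4l had values near 0. Both are counted among the subunit genes by name, which does not show that their product is part of the ribosome. Rpl7l1, which is related to Rpl7, was the 1 gene with a negative value. It was at 193 and 196 CPM in the cKO libraries, against 195 and 200 CPM in the control libraries, which overlap (log2 fold change -0.02 ± 0.05, adjusted p = 0.862). Rpl7 was at 1235 and 1285 CPM in the cKO libraries, against 1104 and 1118 CPM in the control libraries (0.18 ± 0.04, adjusted p = 0.0559). Rps4l, which RefSeq lists as a transcribed pseudogene, was at 44.6 and 45.3 CPM in the cKO libraries, against 42.1 and 47.6 CPM in the control libraries (0.004 ± 0.08, adjusted p = 0.99). The X-linked Rps4x was at 1075 and 1116 CPM in the cKO libraries, against 1018 and 1020 CPM in the control libraries (0.10 ± 0.04, adjusted p = 0.234). Whether a paralogue and its parent differ in their response was not tested.

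Rpl39 encodes a small protein that lines the exit tunnel for the growing peptide. It was at 194 and 207 CPM in the cKO libraries, against 165 and 165 CPM in the control libraries (log2 fold change 0.28 ± 0.05, adjusted p = 0.0335), and the groups did not overlap. Among 6 tested genes of the tunnel and its exit rim, whose median was 0.14, edgeR and limma-voom each called 1 and DESeq2 called 2. Rpl23a, which forms part of the docking site at the tunnel exit, was at 775 and 814 CPM in the cKO libraries, against 710 and 722 CPM in the control libraries (0.15 ± 0.04, adjusted p = 0.119). Rpl35, at the same rim, had a log2 fold change of 0.09 ± 0.04 (adjusted p = 0.333).

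Rpl14 and Rpl10 were the other large subunit genes that rose. Rpl14, which encodes a structural protein of the subunit, was at 594 and 624 CPM in the cKO libraries, against 492 and 514 CPM in the control libraries (log2 fold change 0.28 ± 0.05, adjusted p = 0.024). Rpl10 encodes a protein that joins the large subunit late in its assembly, in the cytoplasm. It was at 789 and 814 CPM in the cKO libraries, against 691 and 706 CPM in the control libraries (0.20 ± 0.04, adjusted p = 0.0463). The groups overlapped for neither.

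Rpl5 and Rpl11 form the 5S ribonucleoprotein with the 5S RNA, and when they are not built into ribosomes they bind and inhibit Mdm2, the ligase that limits p53. Neither was called, and both were higher in both cKO libraries. Rpl5 was at 919 and 967 CPM in the cKO libraries, against 864 and 869 CPM in the control libraries (log2 fold change 0.12 ± 0.04, adjusted p = 0.194). Rpl11 was at 650 and 700.3 CPM in the cKO libraries, against 594 and 640 CPM in the control libraries (0.13 ± 0.06, adjusted p = 0.285). At the lower end of the large subunit, Rpl31, Rpl35, Rpl24, Rpl29 and Rpl27 had log2 fold changes from 0.05 to 0.09, with adjusted p from 0.333 to 0.706. Rpl27 was at 368 and 391 CPM in the cKO libraries, against 358 and 378 CPM in the control libraries, and the groups overlapped.

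In the small subunit, Rps20, Rps19, Rps18 and Rps25 encode proteins of the head, the lobe that turns as mRNA and tRNA move. All 4 rose. Rps20 (chr4:3831584-3835655) was at 494 and 501 CPM in the cKO libraries, against 409 and 430 CPM in the control libraries (log2 fold change 0.25 ± 0.04, adjusted p = 0.0312). Rps19, the gene most often mutated in Diamond-Blackfan anaemia in human, was at 482 and 499 CPM in the cKO libraries, against 416 and 421 CPM in the control libraries (0.23 ± 0.04, adjusted p = 0.0339). Rps25, needed in yeast and human cells for initiation at some internal entry sites, was at 519 and 536 CPM in the cKO libraries, against 455 and 460 CPM in the control libraries (0.20 ± 0.04, adjusted p = 0.0444). Its exons share 668 bases with Ccdc84 and Trappc4 on the opposite strand. Rps18 was at 710 and 728 CPM in the cKO libraries, against 621 and 628 CPM in the control libraries (0.20 ± 0.04, adjusted p = 0.0407). The groups did not overlap for any of the 4.

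Rps2 and Rps23 encode proteins of the body that line the mRNA path, Rps2 at the entry channel and Rps23 at the decoding centre. Both rose without overlap between the groups. They were picked from the called genes, so their shared place in the subunit is not a result. Rps2 was at 2437 and 2474 CPM in the cKO libraries, against 2110 and 2184 CPM in the control libraries (log2 fold change 0.19 ± 0.04, adjusted p = 0.0411). Rps23 was at 778 and 817 CPM in the cKO libraries, against 693 and 687 CPM in the control libraries (0.21 ± 0.04, adjusted p = 0.0442).

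Rps27l, a paralogue of Rps27 that is induced by p53 in human cells, was at 127 and 127 CPM in the cKO libraries, against 107 and 107 CPM in the control libraries (log2 fold change 0.24 ± 0.05, adjusted p = 0.0486). It was closest to the threshold of the 15 and was called in 5 of 16 fits (the one reported and 15 alternatives). Rps27a, which encodes ubiquitin fused to a ribosomal protein, had the largest value of the small subunit. It was not called in edgeR as reported, but was called by DESeq2 and limma-voom, with upper-quartile factors, with no count filter and without control replicate 1. It was at 538 and 563 CPM in the cKO libraries, against 481 and 432 CPM in the control libraries (0.27 ± 0.06, adjusted p = 0.0534). Rps29 followed at 0.22 ± 0.05 (adjusted p = 0.0703). At the lower end, Rps9, Rps24, Rps10, Rps15a and Rps15 had log2 fold changes from 0.05 to 0.10, with adjusted p from 0.277 to 0.532.

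Genes known from disease or mouse mutants were mostly positive, as were 75 of all 76 ribosomal protein genes. Of 17 tested genes mutated in Diamond-Blackfan anaemia in human, edgeR and limma-voom each called 1, which in edgeR was Rps19, and DESeq2 called 2. Of the 17, 16 were positive and the median was 0.12, against 0.16 over the 76 genes. The lowest value, -0.01, belonged to a gene outside the 76. Of 8 genes with developmental defects in mouse mutants, edgeR called Rps19, Rps20 and Rpl22, limma-voom called 3 and DESeq2 called 5. Of all 76 genes, edgeR called 15, limma-voom 20 and DESeq2 29. Whether these lists differ from the other ribosomal protein genes was not tested. All 8 were positive and the median was 0.18. Rpl38, whose loss in mouse impairs translation of Hox mRNAs and axial patterning, was at 152 and 158 CPM in the cKO libraries, against 142 and 136 CPM in the control libraries (0.16 ± 0.05, adjusted p = 0.166).

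Levels between genes were compared as counts per kilobase of exon, scaled to the same total in each library (a TPM-like level). They spanned 123 to 7118 with a median of 1679 over the 4 libraries. By the mean over the 4 libraries the highest were Rpl41 (7363 in the cKO and 6873 in the control, group means), Rps2 (6272 and 5610) and Rpl23a (3617 and 3333), although Rplp1 (3649 and 2955) was above Rpl23a in the cKO. The lowest were Rps4l (122 in the cKO and 124 in the control), Rpl21 (184 and 167) and Rpl7l1 (190 and 198). Exon models of 5179 bases for Rps15a and 3706 bases for Rps20 lower their level on this scale.

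Of the 8 matched symbols under 10 CPM, several belong to proteins of every ribosome. Rpl26 was listed at 0 in all 4 libraries, which allows up to 0.181 CPM in a library (3 counts). Rpl30 averaged 0.239 CPM, Rps27 2.19 CPM and Rpl34 7.39 CPM, the nearest to the minimum from below, while Rps4l at 44.9 CPM was the nearest from above. Rpl32l, Rpl3l, Rpl39l and Rpl10l, the others, averaged 0.666 CPM or less. Many ribosomal protein genes have near-identical processed pseudogenes, and the recorded counting command sets no option to keep reads that map to several places. Shared sequence was measured in a single transcript per gene, against the transcripts of other genes on either strand. Of all 50-base windows in that transcript of Rps27, 98.6% were also found in another annotated gene. The share was 79.2% for Rpl30, 71.3% for Rpl26 and 37.9% for Rpl34. Levels of genes that share sequence with another gene are uncertain, and the relation of this share to the level was not tested. The same share ranged from 0% to 95.1% with a median of 53.4% among the 75 kept genes for which it could be measured. The median log2 fold change was 0.15 in the 43 genes with at least 50% of windows shared, of which 8 were called, and 0.17 in the 32 with less, of which 7 were called. Of the 76 genes, 17 have exons that overlap another gene, 14 of them on the opposite strand.

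Of the ribosomal proteins and partners that the name match leaves out, the pair with the smallest p-values had positive log2 fold changes. Neither was called in edgeR, DESeq2 called both and limma-voom called Rps3a1. Rps3a1, a small subunit protein gene, was at 1178 and 1217 CPM in the cKO libraries, against 1066 and 1057 CPM in the control libraries (log2 fold change 0.17 ± 0.04, adjusted p = 0.0599). Rack1, a scaffold on the head of the small subunit, had a log2 fold change of 0.16 ± 0.04 (adjusted p = 0.0797).

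Ribosome biogenesis factors, which transcribe and process ribosomal RNA and assemble the subunits, had smaller values. Of 125 tested, 1 rose and 0 fell in edgeR (background shares 1.57% and 2.13%). At an unadjusted p under 0.05 in edgeR, 14 were higher (background share 8.43%) and 1 was lower. DESeq2 and limma-voom each called 2 higher and 0 lower. The median log2 fold change was 0.07. Both cKO libraries lay above both control libraries for 62 of the 125 (background share 24.3%) and below for 8 (background share 24%). By step, the median was 0.09 for 15 genes of RNA polymerase I, 0.07 for 59 of nucleolar and small subunit processing and 0.05 for 51 of large subunit processing. The gene called was Ncl, which encodes nucleolin, a major nucleolar RNA-binding protein. It was at 1772 and 1903 CPM in the cKO libraries, against 1540 and 1513 CPM in the control libraries (0.27 ± 0.05, adjusted p = 0.0246), and was not called without cKO replicate 2 or without control replicate 1. Polr1b, a core subunit of RNA polymerase I, had 0.17 ± 0.06 (adjusted p = 0.218), and its initiation factor Rrn3 had -0.12 ± 0.05 (adjusted p = 0.28). Pes1 and Gnl3, factors of large subunit assembly, had 0.18 ± 0.05 (adjusted p = 0.117) and 0.16 ± 0.05 (adjusted p = 0.168).

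Mitochondrial ribosomal proteins, which serve the separate ribosome of mitochondria, were taken by name after values had been seen. Their 78 genes had a median of 0.03. In edgeR 0 were called either way with 1 higher and 1 lower at an unadjusted p under 0.05, and DESeq2 and limma-voom also called 0. Their summed level was 3266 and 3294 CPM in the cKO libraries, against 3277 and 3211 CPM in the control libraries, which overlap.

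**Figure D4:**
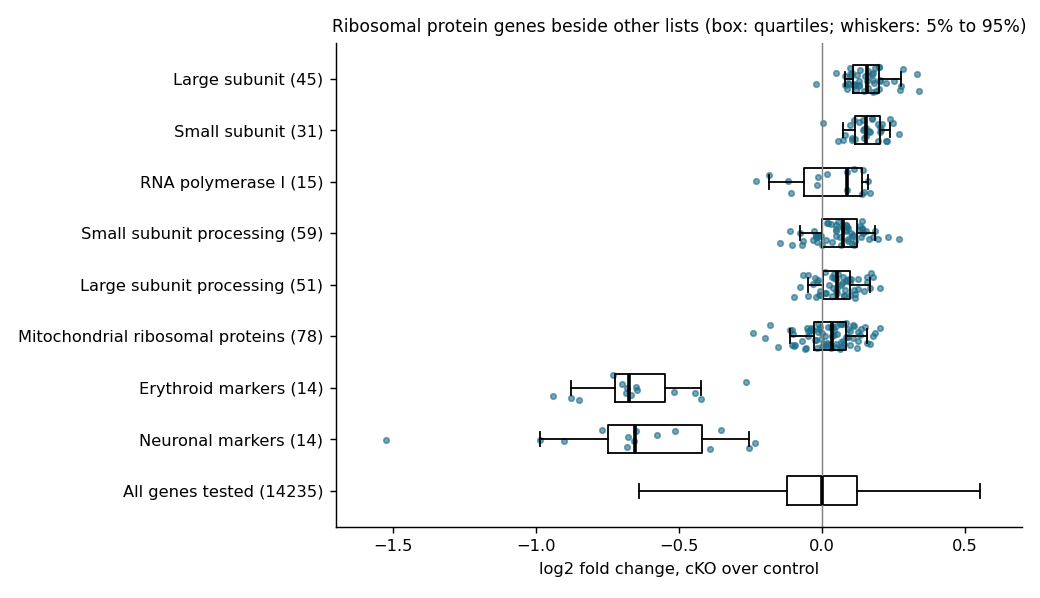
Log2 fold change, cKO over control, of the genes in 9 lists with the number tested in brackets; points are genes (not drawn for all genes), boxes are quartiles with the median, and whiskers run from 5% to 95%. The ribosomal protein boxes lie to the right of 0 with medians of 0.16 and 0.15, biogenesis medians are 0.05 to 0.09, and erythroid and neuronal markers lie to the left with medians of -0.68 and -0.65.

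Among 24 regulators of growth and of the translation of these mRNAs, Myc, a transcription factor that activates ribosome genes, was the gene called. It was at 29.5 and 25.6 CPM in the cKO libraries, against 11.8 and 17.4 CPM in the control libraries, without overlap (log2 fold change 0.91 ± 0.18, adjusted p = 0.0436), and was not called when cKO replicate 1, cKO replicate 2 or control replicate 1 was left out. The median of the list was 0.006. In the list of Mdm2 and p53 response genes, 0 of 14 tested were called in edgeR, 3 were higher and 0 lower at an unadjusted p under 0.05, DESeq2 called 1 higher and limma-voom 0, and the median was 0.04. The smallest p-values of that list belonged to Ccng1 (0.39 ± 0.10, adjusted p = 0.101) and Sesn2 (0.40 ± 0.11, adjusted p = 0.11).

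Cell type markers differed between the groups beside the ribosomal protein genes. In bulk tissue, fewer cells of a type and less RNA per cell cannot be told apart. All 14 tested erythroid markers were lower in both cKO libraries and 7 fell, with a summed level of 1985 and 1866 CPM in the cKO libraries, against 2971 and 3200 CPM in the control libraries. The list includes 6 adult globin genes (Hba-a1, Hba-a2, Hbb-bt, Hbb-bs, Hbb-b1 and Hbb-b2) that were listed at 0 in all 4 libraries. The recorded counting command sets no option to keep reads that map to several places, so a listed 0 does not show that these genes were silent. Of 14 neuronal markers 5 fell in edgeR, 6 in DESeq2 and 3 in limma-voom, and 13 were below in both cKO libraries, and their sum was 645 and 658 CPM in the cKO libraries, against 1115 and 934 CPM in the control libraries. Of 9 tested forebrain markers 4 fell and 3 had positive values, with a median of -0.08, and DESeq2 called 4 lower and 1 higher. Their sum was 863 and 813 CPM in the cKO libraries, against 1346 and 1150 CPM in the control libraries. Endothelial markers summed to 360 and 356 CPM in the cKO libraries, against 420 and 407 CPM in the control libraries, and 0 of 16 were called in edgeR, DESeq2 or limma-voom (1 higher and 6 lower at an unadjusted p under 0.05 in edgeR). Markers of head mesenchyme and neural crest summed to 1093 and 694 CPM in the cKO libraries, against 1017 and 1190 CPM in the control libraries, which overlap, and 1 of 15 fell. The part of these differences in the ribosomal protein values was not tested.

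Ribosomal protein transcripts are short and abundant, with a median exon length of 834 bases against 3149 bases over all genes tested and a median level of 559 against 27.3 CPM. With an offset for exon length in edgeR the median log2 fold change of the 76 genes was 0.11, 73 were positive and 6 were called (Rplp1, Rpl14, Rplp2, Rpl22, Rpl39 and Rps20). With a normalization that removes differences that go with abundance (limma-voom with cyclic loess) the median was 0.12, 75 were positive and 16 were called. Without cKO replicate 2 the median was 0.13, 74 genes were positive, 35 had an unadjusted p under 0.05 and 0 were called. Without control replicate 1 the median was 0.14 and 2 were called. Without cKO replicate 1 it was 0.18 with 3 called, and without control replicate 2 it was 0.17 with 8 called. In each of the 16 fits between 73 and 75 of the 76 genes were positive and 0 were called lower. The number called is thus less stable than the direction. By the authors' deposited table, 29 of the 76 were higher at an adjusted p under 0.05 (1.99% of its 13964 genes with an adjusted p were), 0 were lower (2.49%) and the median log2 fold change was 0.15.

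**Figure D5:**
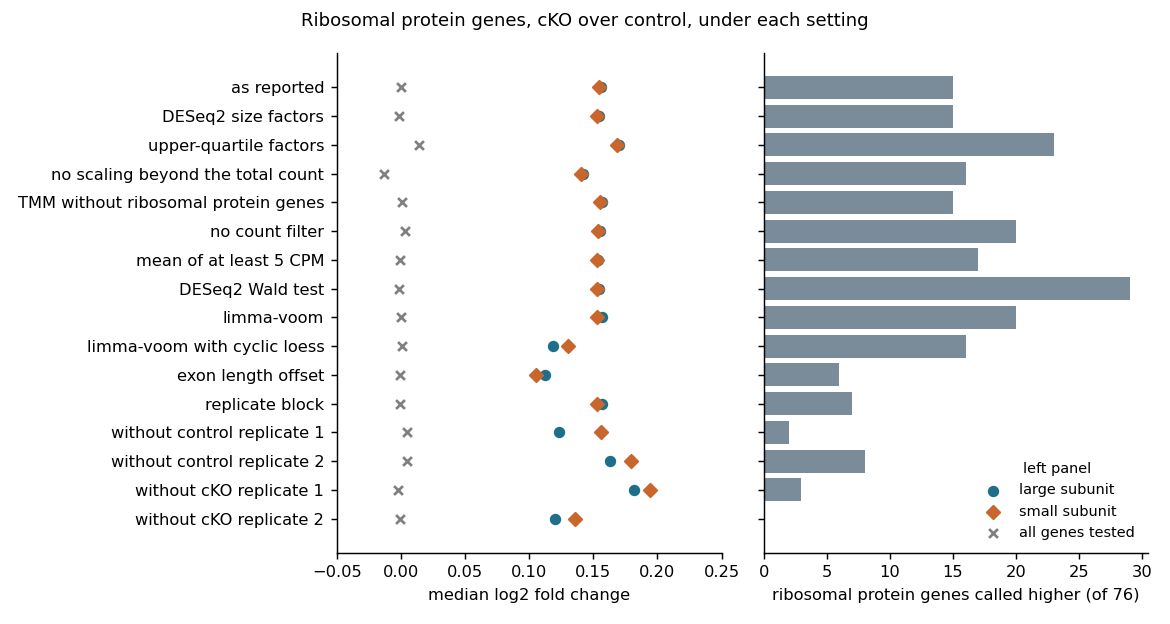
Left panel, median log2 fold change of large subunit genes, small subunit genes and all genes tested in the fit as reported and in each of 15 alternatives; right panel, number of the 76 ribosomal protein genes called higher. Subunit medians stay above 0.1 in every fit, while the number called runs from 0 to 29.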

How the data were processed

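Poly(A) RNA of 4 libraries was sequenced. Raw read counts per gene were deposited, made by the authors with featureCounts 2.0.1 over exons of a RefSeq annotation of mm10 with paired-end reads and no strand option, per the file headers. The submitters' processing notes also name HISAT2 and DESeq2 (versions not given in the sources used here). From the authors, a deposited table of their own comparison holds log2 fold changes, p-values, normalized counts (a signal scaled by library) and a Wald statistic (a score, not used); values from it are named as such. Samples were grouped by genotype, and 0 columns had no sample.

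The members and gene lists were chosen with earlier results of these data known. Genes were filtered with filterByExpr (minimum count 10; 14235 kept), scaled by TMM and tested in edgeR 4.0.16 (glmQLFit, glmQLFTest; R 4.3.3) with no covariate, with Benjamini-Hochberg correction across those genes. The SE is the log2 fold change over the root of F. Genes named are all called members, the 6 largest and 6 smallest values per subunit, 3 highest and 3 lowest levels per length, members of short structural lists, symbols nearest 10 CPM, called genes of other lists or the 2 with the smallest p, and Chd7; Rpl38 and the printed promoters were picked for their sequence or known role. Of the list symbols, 9 were not matched. A few results under this rule were left out and do not appear in the text. Exon lengths and shared windows came from GENCODE M21 (transcripts matched to RefSeq), promoters from RefSeq, both on GRCm38. Precision depends on the totals of 16581252 to 17096522 counts and on the common dispersion, whose square root was 0.0785. Replicates differed beyond sampling noise, with a chi-square per degree of freedom of 4.69 in the cKO and 5.57 in the control. Alternatives used other scalings and filters, DESeq2 1.42.0, limma 3.58.1, an exon length offset, a replicate block and each library left out, where the lone library of a group is assumed to vary like the other group. The edgeR step was tested on simulated data. Plots used matplotlib 3.10.9.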

Additional observations from a re-analysis of the deposited data

How the results depend on the processing

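The counts of calls depended on the fit, while the direction of the set did not in the 15 alternatives run. Genes called in all were 526, against 348 with the replicate block and 211 to 769 when single libraries were left out. Ribosomal protein genes called higher were 15, against 23 with upper-quartile factors, 29 with the DESeq2 Wald test, 6 with the exon length offset, 7 with the replicate block and 0 to 8 when single libraries were left out (0 without cKO replicate 2). Biogenesis genes called higher were 1, against 2 with upper-quartile factors, no scaling, no count filter, the DESeq2 Wald test, limma-voom, cyclic loess and the replicate block, and 0 to 2 when single libraries were left out. The large subunit median was 0.11 with the exon length offset, against 0.16. Of the other genes named as called, Myc was not called with the replicate block. The causes were not tested. Signs reversed only for genes with no call among those named: Rpl27 at -0.0024 with the length offset; Rps4l at -0.00974 with no scaling, -0.0292 with the length offset and -0.0825 to 0.0969 when single libraries were left out (-0.0825 without control replicate 1, -0.00625 without cKO replicate 2); and Rpl34 at -0.0363 to 0.418 when single libraries were left out (-0.0363 without cKO replicate 2). Replicate numbers do not pair the samples by label. Over 11100 genes, same-numbered libraries did not deviate together (correlation -0.013). Among the 76 ribosomal protein genes, however, replicate 2 was above replicate 1 for 68 in the cKO and for 62 in the control. Whether replicate number stands for a shared condition was not tested. With 2 libraries a group, an adjusted p near 0.05 rests on single libraries.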
